A study of Mus musculus with 12 samples.

Results

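The comparison set pituitaries of mice fed a vitamin D-deficient diet only in early life against pituitaries of mice fed that diet only around puberty. It used 8 of the 12 samples of the study, namely the 4 early life and the 4 peripubertal samples, chosen by their titles. Because all 8 were hybridised on 1 slide, differences between slides did not enter. All animals were females of the inbred strain C57BL/6J, and the pituitary was taken at 2 months of age. The labels call the 4 females of a group biological replicates. The other 4 samples came from females on a normal diet, sat on a second slide and are given here only as reference levels. RNA was measured on Agilent 2-colour arrays. Each array carried 2 animals of the same group, the odd-numbered animal in the green dye Cy3 and the even-numbered animal in the red dye Cy5, so each group rested on 2 arrays. The labels give no stage of the estrous cycle for any animal. The design states the aim as comparing the pituitary transcriptomes of these diet groups.

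The pituitary releases growth hormone, prolactin, corticotropin, the gonadotropins and thyrotropin into the blood and is itself steered by hypothalamic peptides and by steroids from the ovary. Estradiol acts on its cells through nuclear receptors and is known for raising the progesterone receptor there. The active form of vitamin D works through the vitamin D receptor, a nuclear receptor that binds DNA as a partner of retinoid X receptors.

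Facts of the slide limit what the groups can show. The early life arrays lay at positions 3 and 4 of the slide and the peripubertal arrays at positions 1 and 2, so position and diet cannot be told apart. The deposited value table assigns the arrays the other way round. Each of its 8 columns for deficient animals matched, to within 1e-06 in log2 units, a channel scanned under the opposite diet label. The table pairs early life 1, 2, 3 and 4 with the scanned channels of peripubertal 3, 4, 1 and 2. The groups below follow the sample labels and the scanner files attached to them. Under the table's assignment every difference between the groups keeps its size and changes its sign. Which of the assignments is correct cannot be told from the files. Spots well above background made up 50.6% to 59.7% of an early life channel and 57.9% to 67.2% of a peripubertal channel. The scanner software had marked 6.54% and 7.34% of spots as outliers on the early life arrays and 3.85% and 5.08% on the peripubertal arrays. Among 39429 probes Gh ranked 1 to 11 over 6 samples by brightness, Cga 4 to 34 over 6, and Prl 1 to 54 and Pomc 1 to 73 over all 8. Fshb ranked 676 to 973 over 4 samples, Tshb 728 to 1737 and Lhb 1064 to 2737 over all 8. Of 14 ovary markers only 3 were bright enough to be tested.

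Of 17121 genes tested, 93 (0.543%) differed between the groups at an adjusted p under 0.05 in limma, a linear model fitted across all genes. The log2 signal of 38 of them (0.222%) was higher and that of 55 (0.321%) was lower in the early life group. This split depended on the processing. With outlier-marked spots dropped before scaling, which moved the median of all genes to 0.20, 25 lower and 50 higher genes passed. With the value table's columns turned to the sample labels, 79 lower and 89 higher passed. Lower genes stayed the more numerous with quantile scaling (55 lower, 40 higher), median centring (28 lower, 23 higher) and the 4 arrays normalized alone (58 lower, 41 higher). The median difference was 1.37 on the log2 scale among the higher and -1.48 among the lower genes, against 0.04 over all genes tested. In every one of the 93 the values of the groups did not overlap, but this held for 23% of all genes tested, 12.9% in the higher and 10.1% in the lower direction. Between arrays of the same group, 2.89% (early life) and 1.96% (peripubertal) of genes differed by over 2-fold. Between arrays of different groups the share was 7.58% and 6.15% for the array of early life 1 and 2, and 4.19% and 3.81% for that of early life 3 and 4. Positions on the genome given below are those of the probes in mouse build mm9.

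**Figure D1:**
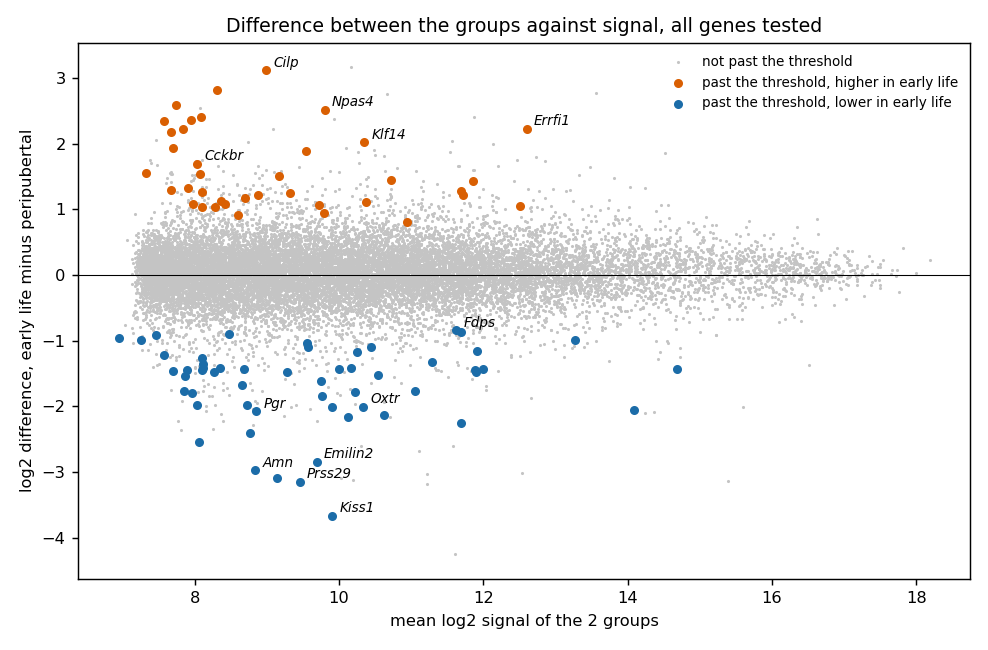
Log2 difference, early life minus peripubertal, against the mean log2 signal of both groups, for all 17121 genes tested. Orange points are the 38 genes past the threshold and higher in early life, blue points the 55 past it and lower, and grey points all others. Some grey points, such as Gal at -3.14, lie as far from 0 as the coloured ones.

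The probe sequences behind the main values are shown first, since each value is the signal of 1 such stretch. Whether a probe lies in a coding exon or a UTR was not checked. The probes of Kiss1, Oxtr and Npas4 hold AATAAA. The capitals in these 30-base stretches of the 60-base probes mark it, since it is the signal for cleavage and addition of the poly-A tail. AATAAA was present in the probes of 18.3% of the 93 genes and of 14.9% of all genes tested.
Kiss1 (chr1:135226267-135226296, plus strand): ctagacttgtgcAATAAAagcaatgctgcc
Oxtr (chr6:112423686-112423715, minus strand): cataaatggtgcacttAATAAAcatttttt
Npas4 (chr19:4984362-4984391, minus strand): agccaactttatAATAAAgtccagtttgcc
For Pgr and Prss29 a second probe read another stretch of the gene.
Pgr (chr9:8961434-8961493, plus strand): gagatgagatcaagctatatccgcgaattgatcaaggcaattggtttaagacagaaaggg
Prss29 (chr17:25459078-25459137, plus strand): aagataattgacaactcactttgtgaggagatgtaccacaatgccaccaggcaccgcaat
The probes of the hair keratins Krt81 and Krt87 are nearly the same sequence, shifted by 5 bases, with 51 of 55 shared positions identical. The capitals mark the 4 positions at which they differ, so these genes cannot be read as independent.
Krt81 (chr15:101290583-101290642, minus strand): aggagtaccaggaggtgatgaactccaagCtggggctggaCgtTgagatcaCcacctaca
Krt87 (chr15:101263556-101263615, minus strand): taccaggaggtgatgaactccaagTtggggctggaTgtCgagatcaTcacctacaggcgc

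Kiss1, Pgr and Oxtr, which encode a reproductive peptide and receptors, were among the 55 genes lower in the early life group. Kiss1, the precursor of kisspeptin, which drives the neurons that release gonadotropin-releasing hormone, had the largest difference of all genes past the threshold. Its log2 signal was 8.59, 7.85, 8.43 and 7.43 in early life samples 1 to 4 and 11.72, 11.58, 11.32 and 12.34 in peripubertal samples 1 to 4. Every early life value lay below every peripubertal value, a difference of -3.67 ± 0.45 (SE, n = 4 and 4, adjusted p = 0.0233, limma), or 12.7-fold. The second Kiss1 probe, well above background in 4 of the 8 channels, differed by -3.06.

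The progesterone receptor gene Pgr read 7.31, 7.83, 8.32 and 7.77 in the early life samples and 9.73, 10.17, 9.62 and 10.03 in the peripubertal samples. The groups lay apart by -2.08 ± 0.29 (SE, n = 4 and 4, adjusted p = 0.0301, limma), a 4.22-fold lower signal. A second probe, well above background in 4 of the 8 channels, differed by -1.66 and another, dim one by -0.50. The probe of the predicted transcript Gm16485 lies 3871 bases beyond that of Pgr on the same strand of chromosome 9 and differed by -1.49 (adjusted p = 0.0404, limma). Whether both read 1 message was not tested.

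The oxytocin receptor gene Oxtr read 9.55, 9.68, 8.98 and 9.10 in early life and 11.02, 11.42, 11.53 and 11.38 in peripubertal samples. Its difference was -2.01 ± 0.22 (SE, n = 4 and 4, adjusted p = 0.0149, limma), 4.02-fold. In the list of receptors for hypothalamic hormones and transmitters used here, Oxtr was the 1 member of 20 tested that passed, and the median was 0.10. The transmitter receptor subunits Chrnb3 and Glra2, described below, are not in that list and passed in the higher direction. Hpgd, an enzyme that inactivates prostaglandins, differed by -1.45, with 1 of 4 early life samples well above background. The gonadotropin subunits Lhb and Cga differed by -0.75 ± 0.52 and -0.19 ± 0.35 and did not pass. For Cga the early life values came from samples 3 and 4 only.

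Several other lower genes encode secreted or surface proteins, as do some of the higher ones. The serine protease gene Prss29 read 8.77, 7.66, 7.91 and 7.17 against 11.31, 10.41, 11.44 and 10.97, a difference of -3.15 ± 0.25 (SE, n = 4 and 4, adjusted p = 0.00689, limma). Its second probe, well above background in 4 of the 8 channels, differed by -2.48. Dim spots beside its own differed by 0.27, the opposite way. Emilin2, an extracellular matrix glycoprotein of elastic fibres, read 7.59, 8.44, 8.42 and 8.62 against 11.07, 10.83, 11.07 and 11.47, which is 7.18-fold lower (adjusted p = 0.0112, limma). Angptl7, a secreted angiopoietin-like protein, was 8.57-fold lower and Amn, the membrane partner of the endocytic receptor cubilin, 7.88-fold lower. Only 2 of 4 early life samples were well above background for Angptl7 and 1 of 4 for Amn, so these folds rest on early life signals near background. Tgfb3, a transforming growth factor, differed by -1.33 ± 0.19 and was 1 of 18 tested genes of that pathway, whose median was 0.16. Pappa2, a protease that cuts binding proteins of insulin-like growth factors, differed by -1.17 ± 0.18. Dim spots around the Pappa2 probe differed by -0.34 in the same direction, and their part in its value was not tested.

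Some lower genes act in transmitter synthesis and excitability. Dbh, the enzyme that turns dopamine into noradrenaline, read 6.87, 7.41, 8.30 and 7.67 in early life samples. In peripubertal samples it read 9.54 to 10.51, a 5.32-fold difference (adjusted p = 0.0461, limma). Slc18a2, which loads monoamines into vesicles, differed by -1.85 ± 0.21 and its second probe by -1.41. Asic2, a proton-gated cation channel, was 4.78-fold lower. Cacna1g, a low-voltage-activated calcium channel, was 4.50-fold lower with a second probe at -2.07, and was the 1 member past the threshold of a list of 27 tested voltage-gated channels, whose median was 0.19. That list does not hold the sodium channel gene Scn11a, which passed in the higher direction. Cckar, a cholecystokinin receptor, was not well above background in any early life sample and was at least 3.89-fold lower there. Ret, the receptor tyrosine kinase of the glial-derived growth factors, was likewise at background in early life and at least 3.12-fold lower. Such bounds set the bright group against the higher of the dim signal and the lowest signal well above background in each channel. In 11 of the 55 lower genes, Cckar, Ret and Krt87 among them, no early life sample was well above background. These genes passed the signal filter through the peripubertal samples alone, so that filter favoured their direction. Socs1, which restrains cytokine signalling, differed by -2.13 ± 0.32. Pcsk6, a proprotein convertase, differed by -2.06 but had values on only 1 early life array.

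Fdps, the farnesyl diphosphate synthase of the cholesterol pathway, averaged 11.20 ± 0.11 (SD) in early life and 12.04 ± 0.03 (SD) in peripubertal samples, a difference of -0.85 ± 0.14 (SE, n = 4 and 4, adjusted p = 0.0434, limma). It was the only 1 of 21 tested cholesterol genes past the threshold, and 14 of the 21 were lower. The keratin genes Krt86, Krt81 and Krt87 on chromosome 15 were also lower. Krt86 differed by -2.01 with values on 1 peripubertal array, and Krt81 by -1.44. Krt87 was not well above background in any early life sample and was at least 1.74-fold lower. Several of the lower genes named here were chosen after their values were seen, namely Hpgd, Slc18a2, Ret, Pcsk6 and the keratins.

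**Figure D2:**
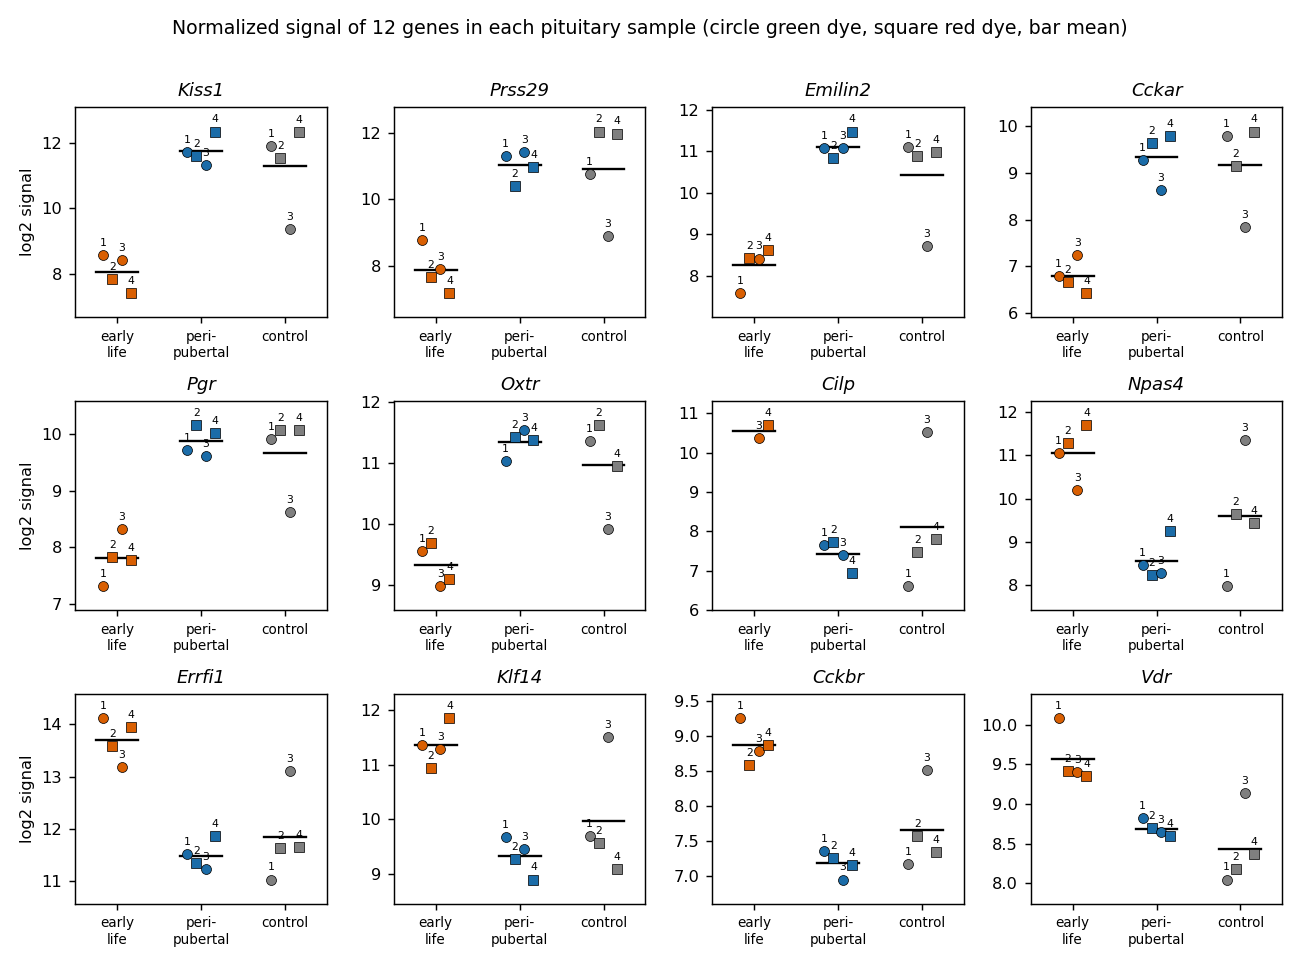
Normalized log2 signal of 12 genes in each sample, early life (orange), peripubertal (blue) and control (grey, other slide). Circles are green-dye and squares red-dye samples, numbers are the animals and bars the group means. In all 12 panels the deficient groups do not overlap; in all 12 control 3 lies away from the other controls, on the early life side.

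Several transcription factors and a signalling inhibitor were among the 38 genes higher in the early life group. Npas4, a transcription factor induced by neuronal activity, read 11.06, 11.28, 10.20 and 11.71 in early life and 8.45, 8.23, 8.26 and 9.24 in peripubertal samples. The difference was 2.51 ± 0.40 (SE, n = 4 and 4, adjusted p = 0.0434, limma), or 5.71-fold. Errfi1, a feedback inhibitor of the epidermal growth factor receptor, was bright in all samples and read 14.12, 13.59, 13.18 and 13.95 against 11.52, 11.34, 11.23 and 11.87. Its difference was 2.22 ± 0.33 (SE, n = 4 and 4, adjusted p = 0.0367, limma), 4.67-fold. Klf14, a zinc finger transcription factor, read 11.35, 10.94, 11.28 and 11.85 against 9.68, 9.28, 9.47 and 8.91, a 4.06-fold difference. Six6, a homeobox factor of eye and pituitary development, read 12.10 to 12.58 against 10.92 to 11.19, a difference of 1.27 ± 0.17.

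Cckbr, the other cholecystokinin receptor, ran opposite to Cckar. It read 9.25, 8.59, 8.78 and 8.87 in early life and 7.36, 7.26, 6.95 and 7.16 in peripubertal samples, 3.23-fold higher (adjusted p = 0.0266, limma). A second Cckbr probe was above background in no sample and differed by 0.15. Nmu, the precursor of the peptide neuromedin U, was 2.49-fold higher. The channel and receptor subunits Chrnb3, Scn11a and Glra2 were 2.41-fold, 2.10-fold and 2.09-fold higher. Cilp, a matrix protein of cartilage, had the largest positive difference (3.11 ± 0.33, adjusted p = 0.0266, limma). That value rests on early life 3 and 4 alone (10.38 and 10.71), because its spot was marked as an outlier on the other early life array. Six6, Nmu, Chrnb3, Scn11a and Glra2 were chosen after their values were seen.

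Transcripts without a plain gene symbol made up 12 of the 38 higher and 2 of the 55 lower genes. Of the higher ones, 5 predicted transcripts lay on chromosome 14 between positions 42541515 and 45057989 and differed by 1.03 to 1.21. Their 60-base probes shared 19 to 51 bases with one another, so signal from copies of 1 sequence cannot be assigned to a single transcript.

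In 9 of the 38 higher genes, no peripubertal sample was well above background. These genes passed the signal filter through the early life samples alone, so that filter favoured their direction. Examples are Trmo (at least 6.72-fold), Olfr1219 (at least 4.76-fold), Bpifb9b (at least 4.42-fold), Nox4 (at least 4.05-fold) and Ulbp1 (at least 3.55-fold). Nox4, a hydrogen peroxide-producing oxidase, read 9.22, 8.47, 8.95 and 8.43 against 6.72, 6.61, 6.48 and 6.53. Nox4 was the only 1 past the threshold of 18 tested oxidase and antioxidant genes (median 0.13), and Ulbp1, a ligand of the natural killer cell receptor NKG2D, of 5 tested genes of a list of such ligands and natural killer cell genes (median 0.17). The other Nox4 probes were not well above background in any of the 8 channels and differed by 0.17 and 0.10. The second Trmo probe, above background in 7 samples, differed by -0.02, and the dim second probe of Ulbp1 by -0.16. The spots of Nox4 and Olfr1219 touch, in rows 66 and 67 of column 11, and 5 of the 9 spots lie in rows 305 to 308. Dim spots around a probe differed by over 0.2 the same way for 6 of 37 higher genes (16.2%), 5 of 55 lower genes (9.09%) and 5.72% of all genes tested. Most of those 6 were among these 9 genes. Such spots differed by 0.26 around Ulbp1, 0.24 around Olfr1219, 0.22 around Nox4, 0.15 around Bpifb9b and 0.08 around Vmn1r211. Around those of the 9 without a plain symbol they differed by 0.22, 0.21 and 0.06, and Trmo had no such value. The part of the array surface in these 9 values was not tested.

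Some of the 93 genes had a second probe that passed the signal filter. Those of Cacna1g (-2.07) and Fgf12 (-0.70) were well above background in all 8 channels and differed in the direction of the first probe. In Apoc3, Trmo and Cep89 the second probe lay within 0.1 of 0, though it was well above background in 8, 7 and 6 of the 8 channels. The second probes of Kiss1, Prss29, Pgr, Hpgd and Vgll1 were well above background in 4 channels only, so the filter favoured their direction. The same limit holds for the other kept probes of Mad2l1, described below.

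Most of the 93 genes also varied among the control animals, which had entered neither the choice of genes nor the fit. Of 91 genes measured in control 3, 75 (82.4%) lay nearer to the early life mean than to the peripubertal mean. The same count was 2 of 91 in control 1, 0 of 91 in control 2 and 2 of 91 in control 4. On a scale from 0% at the peripubertal mean to 100% at the early life mean, the median gene stood at 70.4% in control 3 and at 3.64%, 6.43% and 2.59% in controls 1, 2 and 4. Among 2966 genes that differed by over 0.5 without passing, 63.5% lay nearer to early life in control 3, against 19.7% to 25.7% in the other controls. Controls 3 and 4 shared a diet and an array and differed in dye. There 88 of 91 genes were shifted in control 3 toward early life, against 65.7% of all genes tested, and 47 of the 91 differed by over 2-fold. On the array of controls 1 and 2 the corresponding counts were 46 and 2 of 91. Over all genes tested, 3.56% differed by over 2-fold between controls 3 and 4, against 1.49% to 1.96% within the other 5 arrays. The green dye was on control 3 and on control 1 alike.

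**Figure D3:**
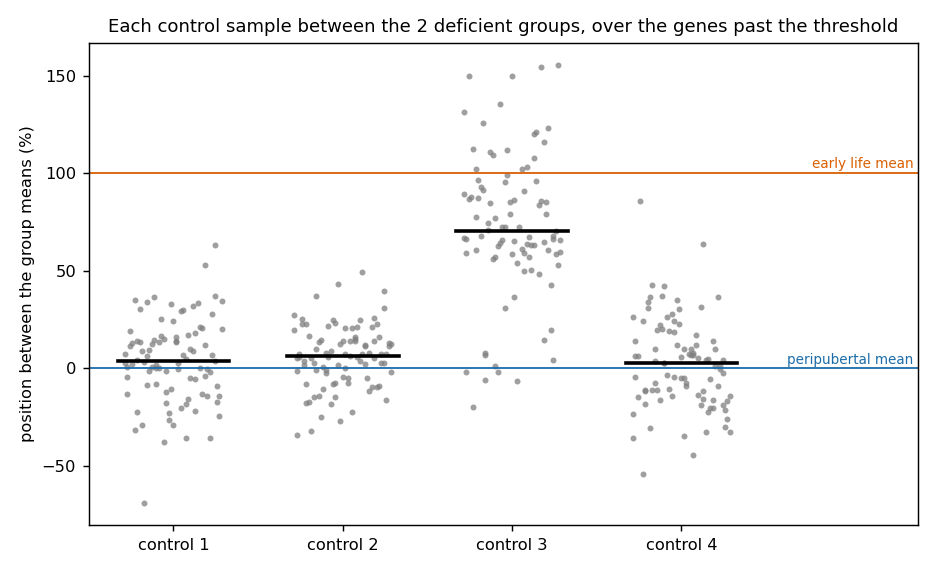
Position of each control sample between the peripubertal mean (0%, blue line) and the early life mean (100%, orange line), with 1 point for each of the 93 genes that was measured there. Black bars are medians: 70.4% in control 3, and 3.64%, 6.43% and 2.59% in controls 1, 2 and 4.

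Named genes show the same order. Kiss1 read 11.88, 11.54, 9.37 and 12.33 in controls 1 to 4, Pgr 9.92, 10.08, 8.63 and 10.08, and Oxtr 11.36, 11.62, 9.91 and 10.94. In each of these genes control 3 was lowest and lay between the deficient groups. Npas4 read 7.97, 9.64, 11.36 and 9.43, Errfi1 11.03, 11.63, 13.10 and 11.65, and Klf14 9.70, 9.57, 11.51 and 9.10, with control 3 highest each time. The 28 genes with higher early life signal that were measured in control 3 and not dim in all peripubertal samples all lay nearer to early life there. None of the 9 dim genes did. Controls were scaled together with the other arrays but sat on another slide, so their levels are reference levels, not a tested comparison.

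None of the pituitary hormones passed the threshold. Prl, prolactin, read 18.20, 18.11, 17.78 and 17.99 in early life and 17.54, 17.88, 16.99 and 18.01 in peripubertal samples, a difference of 0.41 ± 0.27 (SE, n = 4 and 4, adjusted p = 0.454, limma). The groups overlapped. The difference of Pomc was -0.25 ± 0.20, that of Tshb 0.06 ± 0.47 and that of Gh 0.22 ± 0.24, the last from early life 3 and 4 only. Ghrhr, the receptor for growth hormone-releasing hormone, differed by -0.45 ± 0.22 and had values on 1 early life array. Fshb had no usable early life value and was not tested. Of 10 tested somatotroph genes 1, Pappa2, passed, and of 11 gonadotroph genes none.

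The vitamin D receptor gene Vdr did not pass the threshold either. It read 10.09, 9.41, 9.41 and 9.36 in early life, 8.82, 8.69, 8.64 and 8.60 in peripubertal and 8.04, 8.18, 9.13 and 8.36 in control samples. Early life and peripubertal samples did not overlap, and the difference of 0.88 ± 0.21 (SE, n = 4 and 4) had an adjusted p of 0.122 (limma). Control 3 again stood above the other controls. Rxra, its partner receptor, differed by -0.0012 ± 0.13, and Cyp27b1, the enzyme that activates vitamin D, by 0.12 ± 0.14. Cyp24a1, which degrades it, was too dim to be tested. Of 15 tested genes of vitamin D reception and metabolism 10 were higher, 5 lower and none past the threshold, with a median of 0.14. Of 17 tested vitamin D target genes 10 were higher and 7 lower, again with none past the threshold.

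**Figure D4:**
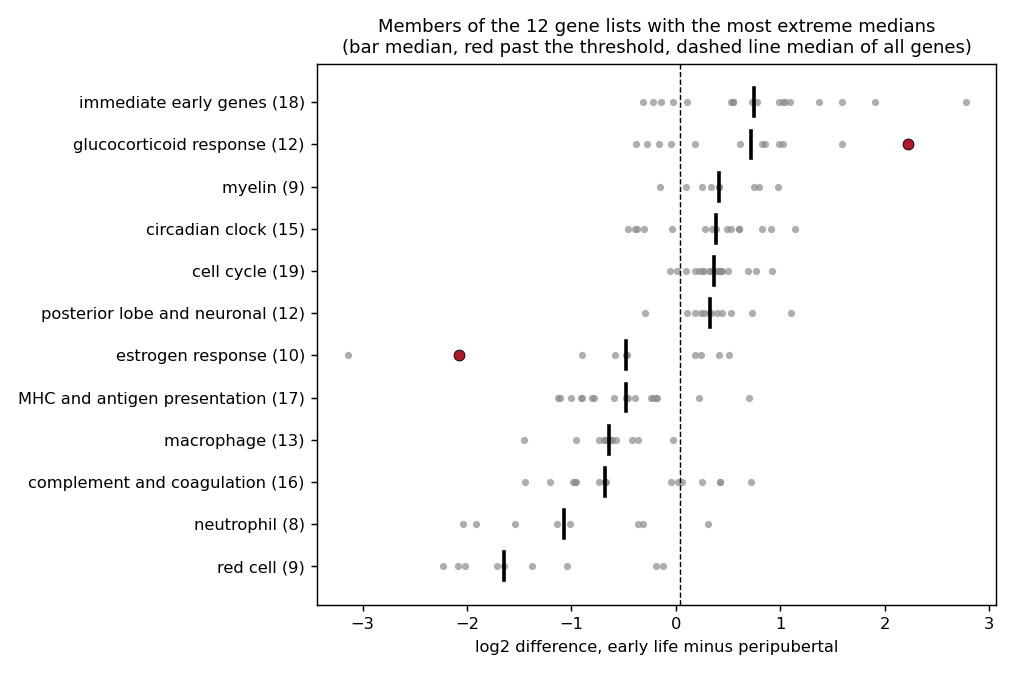
Log2 difference, early life minus peripubertal, of every tested member of the 12 lists with the 6 highest and 6 lowest medians; the number tested stands in brackets. Black bars are list medians, red points members past the threshold (Errfi1 and Pgr), and the dashed line is the median over all genes, 0.04.

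Gene lists differed in their medians but rarely held genes past the threshold. Immediate early genes, the first transcripts to follow a stimulus, had the highest median, 0.75, with 14 of 18 higher in early life and none past the threshold. Arc differed by 1.91 ± 0.49 (adjusted p = 0.133, limma) and Dusp1 by 1.59 ± 0.30 (adjusted p = 0.101, limma). The early life values of Dusp1 came from samples 3 and 4 only. Mean list scores, each gene taken relative to its mean over the 8 samples, were 0.94, 0.17, -0.10 and 0.64 in early life and -0.32, -0.69, -0.48 and -0.05 in peripubertal samples, which overlap. Genes that respond to glucocorticoids had a median of 0.72, with 8 of 12 higher. Errfi1 passed the threshold and Dusp1, a member of both lists, did not. Their scores did not overlap: 0.24, 0.43, 0.08 and 0.60 against -0.21, -0.34, -0.33 and -0.07. This was not particular to them. Among the 55 lists, the scores of several others did not overlap either. These were the lists of estrogen response, red cell, cholesterol synthesis, fatty acid synthesis, p53 target, natural killer, and vitamin D reception and metabolism genes. In controls 1 to 4 these scores were -1.02, 0.01, 0.54 and -0.95, with control 3 highest.

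Estrogen-responsive genes had a median of -0.47 with 6 of 10 lower, among them Pgr past the threshold. Over the alternative settings that median ran from -0.57 to -0.06. Gal, the galanin precursor, had the lowest value of that list, -3.14 ± 0.70 (SE), and did not pass (adjusted p = 0.109, limma). Greb1 differed by -0.90 (adjusted p = 0.293, limma), while the receptor genes Esr1 and Esr2 differed by 0.24 and 0.51 and did not pass. Gal, Greb1, Esr1 and Esr2 were chosen after their values were seen. Other high medians belonged to myelin genes (0.41, 8 of 9 higher), clock genes (0.38, 10 of 15), cell cycle genes (0.37, 18 of 19) and posterior lobe and neuronal genes (0.33, 11 of 12). Of all 17121 genes tested, 9322 were higher. None of the members of these lists passed, and in each list the scores of the groups overlapped. Over the alternative settings these medians ran from 0.22 to 0.60 (myelin), 0.14 to 0.64 (clock), 0.11 to 0.58 (cell cycle) and 0.17 to 0.52 (posterior lobe and neuronal). The cell cycle list does not hold the spindle checkpoint gene Mad2l1, which passed in the lower direction (-1.42, adjusted p = 0.0279, limma). The other kept probes of Mad2l1 were also lower in early life. They were well above background in only 4 and 5 of the 8 channels, with early life means of 7.14 and 7.22. The signal filter therefore favoured the lower direction, so these probes are no independent support. Mad2l1 was chosen after its value was seen. The members of smallest p, which are not always those of largest difference, included Cldn11 of myelin (0.98), Arntl and Tef of the clock (0.82 and 0.53), Ccna2 and Bub1b of the cell cycle (0.92 and 0.40), and Snap25 of neurons (0.53). For Arntl the peripubertal values came from samples 3 and 4 only. Nefl, a neurofilament subunit and the other neuronal member of smallest p, was 2.15-fold higher and did not pass.

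Markers of several blood and immune cell types had negative medians, though none of these genes passed the threshold. T and B cell genes did not share this, with a median of 0.17 and 3 of 5 higher, nor did the natural killer list above, with 4 of 5 higher. All 9 tested red cell genes were lower, with a median of -1.65, and 7 of them did not overlap between groups, against 10.1% of all genes in that direction. Alas2, the first enzyme of red cell heme synthesis, differed by -2.23 ± 0.41 (adjusted p = 0.0672, limma), and the alpha globin Hba-a1 by -2.02 ± 0.36 (adjusted p = 0.0582, limma). Neither passed. Red cell scores were -0.20, -0.91, -0.90 and -0.70 in early life and 0.82, 0.43, 1.33 and 0.11 in peripubertal samples. In controls 1 to 4 they were 0.94, 0.73, -0.62 and -0.51. All 13 tested macrophage genes were lower (median -0.64), but scores overlapped. The largest difference was that of Ctss (-1.45, chosen after its value was seen), and the smallest p values were those of C1qa (-0.95) and C1qb (-0.68). Complement and coagulation genes had a median of -0.68, with 10 of 16 lower, 6 higher and C3 at -1.44. That list also holds C1qa and C1qb, so it is not independent of the macrophage list. Antigen presentation genes had a median of -0.48, with 15 of 17 lower, H2-Eb1 at -1.11 and Tap2 at -0.79. The scores of the complement list and of the antigen presentation list overlapped between the groups. For H2-Eb1 and Tap2 the peripubertal values came from samples 3 and 4 only. Over the alternative settings the antigen presentation median ran from -0.98 to 0.03, so its direction was not kept. The macrophage median ran from -0.87 to -0.15 and that of complement from -0.80 to -0.20. The neutrophil median of -1.08 came with a score of 3.32 in peripubertal 3 against -0.46 to -0.16 in the other 3 peripubertal samples, and ran from -2.25 to -0.09 over the alternative settings. S100a8 and Ngp, both neutrophil proteins, differed by -2.04 ± 1.68 and -1.91 ± 1.18. In bulk pituitary, fewer cells of a type and less RNA per cell cannot be told apart. The part of blood and immune cells in the differences of the 93 genes was not tested.

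Promoters were searched because many of the 93 genes, higher and lower ones alike, also stood toward early life in control 3. Whether they share a regulator was not tested. RefSeq promoters of build GRCm38.p6, 250 bases before to 50 after each start, matched 65 of the 93 genes and 11084 of all genes tested. AGGTCA, the half-site bound by many nuclear receptors, was present on either strand for 15 of 65 genes (23.1%) and for 15.6% of all. TATAAA was present for 13 of 65 (20%) and 10% of all, and TGACGTCA, the cAMP response element, for 2 of 65 (3.08%) and 3.43% of all. The full palindromic estrogen response element was in 0 of 65 and in 4 of 11084, and the direct-repeat vitamin D response element in 0 and in 1. AGGTCA overlaps both of these longer motifs. These matches describe the letters in the windows only. The windows of 50 bases below show the AGGTCA matches of Oxtr and Prss29, those nearest the start of Kiss1, and the TGACGTCA match of Errfi1, with the motif or its reverse complement in capitals.
Kiss1 (chr1:133327154-133327203, plus strand): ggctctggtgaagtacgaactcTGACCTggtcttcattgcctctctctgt
Oxtr (chr6:112489896-112489945, minus strand): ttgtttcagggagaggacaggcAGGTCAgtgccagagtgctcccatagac
Prss29 (chr17:25318574-25318623, plus strand): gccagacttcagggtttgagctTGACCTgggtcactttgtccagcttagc
Errfi1 (chr4:150854998-150855047, plus strand): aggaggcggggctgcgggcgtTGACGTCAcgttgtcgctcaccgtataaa
The Kiss1 match starts 36 bases before the transcription start, that of Oxtr 98, that of Prss29 58 and that of Errfi1 51. Kiss1 holds a second match 65 bases before its start.

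The number of genes past the threshold depended on single samples. It was 0 without early life 4, where 1895 genes had an unadjusted p under 0.05 in limma, 12 without early life 2 and 288 without early life 3. Without peripubertal 1, 2 or 4 it was 53, 28 and 18, and without early life 1 or peripubertal 3 it was 76 and 68. Each of the 93 genes kept its direction in every one of these fits in which it was tested. Since their groups do not overlap, leaving out 1 sample could hardly reverse a direction, so this is no measure of stability. Over up to 30 alternative settings, each of the 25 named genes past the threshold kept its direction wherever it was measured. These too were genes whose groups do not overlap, so a kept direction says little about stability. Emilin2 passed in 28 of 30, Kiss1 and Oxtr in 27, Errfi1 in 19, Npas4 in 14 and Fdps in 12. Olfr1219 passed in 28 of 29, Prss29, Nox4 and Ulbp1 in 27, Pgr in 19 and Dbh in 10. The alternatives drew on the same scanned spots, so these counts cannot show a fault of a single spot or probe. Olfr1219, Nox4 and Ulbp1 are among the genes described above that were dim in all peripubertal samples, and the limits given there hold here too.

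**Figure D5:**
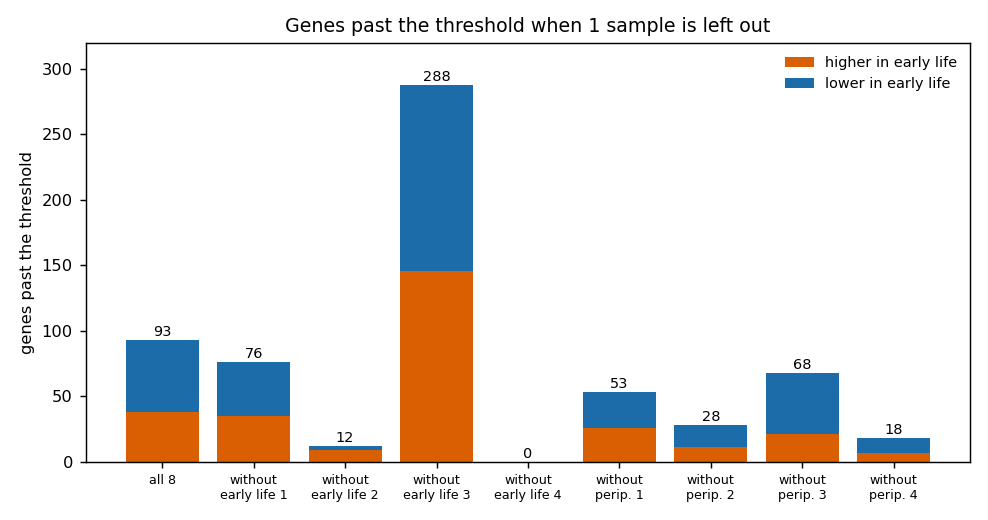
Number of genes past the threshold with all 8 samples and with each sample left out, split into genes higher (orange) and lower (blue) in early life. The total ranges from 0 without early life 4 to 288 without early life 3, against 93 with all samples.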

How the data were processed

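Total RNA of 12 pituitaries was measured on Agilent arrays. The deposited scanner files hold raw spot intensity and spot marks, written per the file headers by Agilent's Feature Extraction software (11.0.1.1) with probe positions in mm9, and the deposited value table holds log2 values that the labels do not describe. It served as an alternative. Of 44397 features, 1377 controls were left out. Background was corrected by normexp (offset 50), dyes by loess within arrays and arrays by Aquantile over all 6 arrays. Outlier-marked spots were dropped after this scaling, a choice made after seeing that the marks sit on bright spots (25.2% and 25.5% of the brightest 20% of spots on early life arrays, 12.6% and 19.1% on peripubertal arrays). Replicate spots were averaged, and a probe was kept when 4 or more of the 8 compared channels were well above background (22829 probes). The brightest probe stood for its gene. Of 39429 probes, 8037 had no match in RefSeq's gene table and kept the file's name. For 792 genes a group lacked values, and they were not tested. The 8 channels were fitted in limma 3.58.1 with group and dye as terms and array as a random block (array correlation 0.44, 5 residual and 3.70 prior degrees of freedom), two-sided, with Benjamini-Hochberg adjustment over all genes and a threshold of 0.05. Whether a p-value reflects animals or technical spread rests on the labels' word that these are separate females. The number of arrays limits the precision, and the median SE was 0.20. The fit was tested on simulated data. Members and lists were chosen with earlier results of these data known. Named genes were the 10 largest differences past the threshold in each direction with a plain symbol and no overlap, 12 hormone and vitamin D genes, list members past the threshold and, for the 6 highest and 6 lowest list medians without one, the 2 members of smallest p. Replicate numbers did not pair the samples (correlations of same-numbered deviations 0.02, 0.02, -0.16 and 0.14). Alternatives changed the background correction, scaling, filter, probe choice, model and samples.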

Additional observations from a re-analysis of the deposited data

Results flagged for a closer look

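In 187 groups of 4 samples, 11 (5.88%) held a sample whose gap to the nearest other was unusually large for the group's range, where chance gives about 1 in 20. Control 3 stood apart 4 times: Emilin2 read 8.73 (next control 10.89), Fdps 10.90 (11.83), Pgr 8.63 (9.92) and Tgfb3 10.74 (11.77). Peripubertal 3 stood apart for the neutrophil score, 3.32 (next -0.16), for S100a8, 14.69 (9.85), and for Nefl, 7.77 (8.30). Peripubertal 1 had the highest Olfr1219 value of its group, 6.94 (6.73). Early life 4 stood apart for S100a8, 10.12 (8.11), and the neutrophil score, 0.42 (-0.61). Early life 1 had the highest Vdr value of its group, 10.09 (9.41).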

How the results depend on the processing

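With all samples 93 genes passed (38 higher, 55 lower in early life), 25 of them named and 9 list members. Changes to the spots and scaling gave, as total, higher and lower, 51, 23 and 28 with median centring, 45, 19 and 26 with outlier-marked spots kept, 75, 50 and 25 with those spots dropped before scaling (chosen after seeing the data), and 168, 89 and 79 with the value table's columns. Named genes past the threshold numbered 16 with median centring and 15 with outlier spots kept or processed signals. List members numbered 5, 5, 5 and 15 under the first 4 settings. Without a filter 45 (18, 27) passed, with 13 named and 5 list members. With all 8 channels required it was 22 (6, 16), 7 named and 3 list members. The mean of a gene's probes gave 87 lower genes. Ignoring the shared array gave 960 (455, 505) and 57 list members. All 12 samples in the fit left 12 named genes. The replicate number as a block gave 24 (11, 13), 12 named and 4 list members, though the numbers did not pair the samples. Without the array of early life 1 and 2 it was 159 (100 higher), without that of early life 3 and 4 1418 (715, 703; 74 list members), without that of peripubertal 1 and 2 51 (18, 33; 10 named, 4 list members) and without that of peripubertal 3 and 4 18 (3, 15; 4 named, 0 list members). Leaving out single samples gave totals from 0 to 288, higher genes from 0 to 146, lower genes from 0 to 142, named genes from 0 to 25 and list members from 0 to 22. The cause of these changes was not tested. No named gene past the threshold changed direction, which for genes whose groups do not overlap says little about stability. Signal over background limits the dim genes: a gene never well above background in a group has a bound only, and one above it in some samples has a less certain fold.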
